A study of Mus musculus with 32 samples.

Results

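The regions bound by CHD4 in B3 pre-B cells were compared between 1 h and 2 h of 4-hydroxytamoxifen (4-OHT), to ask where CHD4 peaks that appear after the first hour lie. B3 is a pre-B cell line of the mouse. It had received, by retrovirus, an HA-tagged Ikaros (IKZF1) fused to ERt2, and every library came from this line. ERt2 is a hormone-binding domain used to keep the fusion out of the nucleus until 4-OHT is added. Ikaros peaks were still called without 4-OHT, 7822 and 9527 of them at 0 h (replicates 1 and 2). Both groups received 500 nM 4-OHT, for 1 h or for 2 h, and each had 2 CHD4 chromatin immunoprecipitation sequencing (ChIP-seq) libraries with 1 list of broad peaks each. Lists for Ikaros and H3K27ac at 0 h, 30 min, 1 h and 2 h, and for CHD4 at 0 h (no 4-OHT) and 30 min, were read beside them, with 2 replicates per time. Labels do not say whether replicates were separate cultures, so p-values measure the spread between these libraries only. The sources used here also do not say whether the 3 targets of one time came from the same chromatin or shared an input.

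The 4 CHD4 lists were merged into 13589 regions. Gained regions were those that both 2 h lists and neither 1 h list called. Lost regions were the reverse, and kept regions were called by all 4. This gave 488 gained regions (3.59% of the merged regions), 199 lost regions (1.46%) and 1731 kept regions (12.7%), 2418 in all. The remaining 11171 regions had mixed calls. Merging all 8 CHD4 lists of the series gave 15358 regions. A region absent from a list did not reach the peak threshold in that library, and was not shown to be unbound.

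CHD4 is an ATP-dependent nucleosome remodeller and the core of the NuRD complex, which joins remodelling to the histone deacetylases HDAC1 and HDAC2. Ikaros is a zinc-finger transcription factor of lymphoid cells that binds DNA with GGGAA at its core and can bring NuRD to its target sites. H3K27ac marks active promoters and enhancers, and its removal by deacetylases accompanies repression. In pre-B cells Ikaros is known for restraining proliferation and pre-B cell receptor signalling and for promoting differentiation.

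Sequences of 8 regions are shown because they span the kinds of region described below: gained regions with and without an Ikaros peak, a lost region beside a gained one at Runx1, and a kept region. Each is 150 bases of the plus strand of GRCm38 (mm10), written 5′ to 3′. Windows were centred on the highest Ikaros summit of 2 h replicate 2 inside the region, or on the middle of the region where there was none. Capitals mark GGGAA on either strand (TTCCC on the strand shown). The annotation around each window is given with its values below.
Bcl11a, gained, Ikaros summit, chr11:24081839-24081988: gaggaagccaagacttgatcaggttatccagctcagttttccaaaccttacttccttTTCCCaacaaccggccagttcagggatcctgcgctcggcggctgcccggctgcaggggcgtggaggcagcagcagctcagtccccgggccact
Lef1, gained, Ikaros summit, chr3:131112534-131112683: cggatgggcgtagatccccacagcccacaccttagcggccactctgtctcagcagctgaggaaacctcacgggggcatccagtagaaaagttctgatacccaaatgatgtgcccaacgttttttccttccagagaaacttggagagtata
Chd3, gained, Ikaros summit, chr11:69366507-69366656: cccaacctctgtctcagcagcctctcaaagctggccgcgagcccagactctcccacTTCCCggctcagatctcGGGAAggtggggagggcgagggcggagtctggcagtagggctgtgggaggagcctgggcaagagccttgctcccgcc
Runx1, gained, Ikaros summit, chr16:92706496-92706645: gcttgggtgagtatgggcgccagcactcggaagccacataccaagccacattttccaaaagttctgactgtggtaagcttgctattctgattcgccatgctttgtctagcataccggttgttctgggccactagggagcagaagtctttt
Sox4, gained, region middle, chr13:28946750-28946899: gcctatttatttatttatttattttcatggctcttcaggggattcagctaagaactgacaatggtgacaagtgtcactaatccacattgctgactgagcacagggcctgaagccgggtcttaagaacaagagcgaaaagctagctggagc
Pdcd6ip, gained, region middle, chr9:113708583-113708732: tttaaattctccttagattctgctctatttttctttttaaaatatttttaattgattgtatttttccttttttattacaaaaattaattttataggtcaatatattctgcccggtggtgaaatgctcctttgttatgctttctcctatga
Runx1, lost, Ikaros summit, chr16:92710334-92710483: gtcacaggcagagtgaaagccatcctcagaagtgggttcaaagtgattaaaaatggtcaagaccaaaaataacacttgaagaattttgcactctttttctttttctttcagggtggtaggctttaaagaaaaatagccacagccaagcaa
Rfwd3, kept, Ikaros summit, chr8:111300414-111300563: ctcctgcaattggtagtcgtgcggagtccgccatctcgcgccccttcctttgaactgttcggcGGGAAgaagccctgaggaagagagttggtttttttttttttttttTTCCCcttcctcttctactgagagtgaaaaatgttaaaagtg
The word occurred in 3 of these windows, those at Bcl11a, Chd3 and Rfwd3. The Pdcd6ip window, which had no Ikaros peak in any list, was 25.3% GC, against 60.7% at Bcl11a and 67.3% at Chd3.

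The 4 lists differed in length, and the 2 h replicates differed most. The 1 h lists held 5446 and 5027 CHD4 peaks, and the 2 h lists held 5523 (replicate 1) and 9593 (replicate 2). The mean rose by 2321.5 peaks from 5236.5 to 7558, but 2 h replicate 1 was close to both 1 h lists (exact two-sided permutation p = 0.333, n = 2 and 2). That is the smallest p that 2 against 2 allows, so no comparison of 1 h with 2 h here could reach 0.05. The difference was 286.5 peaks without 2 h replicate 2, 4356.5 without 2 h replicate 1 and 533 with folds of at least 3. Peaks of 2 h replicate 1 were the weakest, with a median −log10 q of 1.59 against 2.30 and 1.86 at 1 h and 1.82 in 2 h replicate 2. Of the peaks in 2 h replicate 1, 55.5% overlapped 2 h replicate 2, while 74.9% and 75.7% of the peaks in the 1 h lists did so. Broad peaks carry averages over a region and no counts, so CHD4 sequencing depth is unknown.

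Among the 15 possible call patterns, the largest were regions found in only 1 list. In all, 7558 regions (55.6%) had a single call, of which 4025 were in 2 h replicate 2 alone and 1959 in 2 h replicate 1 alone. The gained pattern was one of 6 patterns with 2 calls. It held fewer regions than the 817 shared by 1 h replicate 1 and 2 h replicate 2, or the 672 shared by 1 h replicate 2 and 2 h replicate 2. It held more than the 170 and 105 that 2 h replicate 1 shared with either 1 h list. Another 966 regions were called in every list but 2 h replicate 1, against 107 missed only by 2 h replicate 2. Which class was larger depended on the lists. With lists of equal size there were 207 gained and 490 lost regions, with folds of at least 3 there were 297 and 396, and with −log10 q of at least 2 there were 104 and 263. The excess of gained over lost regions therefore did not hold.

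**Figure D1:**
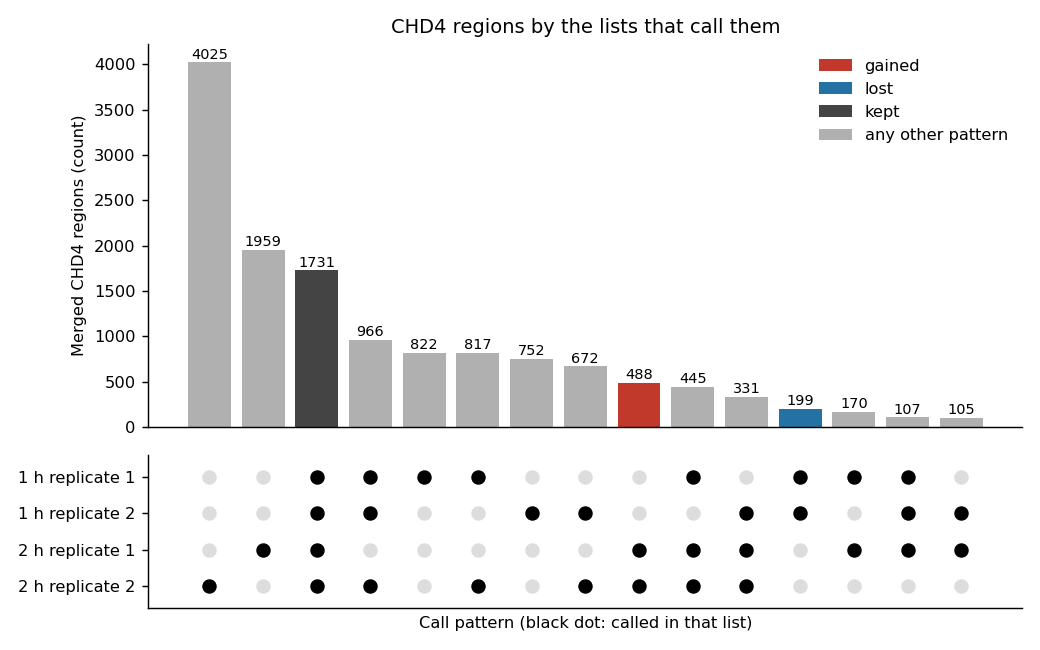
Number of merged CHD4 regions (y axis, count) for each of the 15 call patterns over the 1 h and 2 h lists, with black dots below each bar for the lists that call the region. The 488 gained regions (red) are fewer than 2 of the patterns that pair a 1 h list with 2 h replicate 2, and more than the 199 lost regions (blue).

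Regions called in a single 2 h list held fewer of the other marks than gained regions. Only 17.4% to 21.2% of the regions called in 2 h replicate 1 alone overlapped a 2 h Ikaros peak, and 40.4% to 45.2% a 2 h H3K27ac peak, depending on the replicate. Regions called in 2 h replicate 2 alone had 35.1% to 42.8% and 70.2% to 71.6%. For regions called in both 2 h lists and neither 1 h list, the same shares were 65.8% to 66.8% and 91.6% to 93.0%. In the same order, the median widths were 450 bp, 544 bp and 1166 bp, and a wider region can overlap more peaks. The part of width in these shares was not tested. Across whole lists, the share of CHD4 peaks with an Ikaros peak of the same time and replicate was 78.1% and 81.9% at 1 h, and 59.6% and 65.7% at 2 h (replicates 1 and 2). The fall of 17.4 percentage points, down to a mean of 62.6%, exceeded the spread of replicates (exact permutation p = 0.333, the smallest possible). With a −log10 q of at least 2 the difference was −9.50 points and with lists of equal size −11.6 points. The share with an H3K27ac peak was 93.5% and 91.1% at 1 h and 77.2% and 83.3% at 2 h. The share within 1 kb of a transcription start site (TSS) was 44.2% and 42.4% at 1 h and 38.2% and 42.0% at 2 h. Both differences, of −12.1 and −3.20 points, also left the groups without overlap (exact permutation p = 0.333 for each). The H3K27ac difference was −7.65 points with a −log10 q of at least 2. The TSS difference turned to 0.562 points there, and it was −1.62 with folds of at least 3, −1.31 without 2 h replicate 1 and −5.09 without 2 h replicate 2.

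CHD4 fold enrichment, the value that the peak caller gave to each peak over its local background, was modest at gained regions. Its median was 3.12 in 2 h replicate 1 and 3.13 in 2 h replicate 2, and its range over both lists was 2.02 to 4.71. Within each list these regions stood at a median percentile rank of 49.1 and 47.0. Kept regions ranked at 65.1 and 70.9 in the same lists. Lost regions had medians of 3.50 and 3.47 in the 1 h lists, at ranks of 44.7 and 49.5. The 776 regions called in both 2 h lists and exactly 1 of the 1 h lists lie just outside the rule. Their 2 h medians were 3.16 and 3.22, and the 1 h call had a median fold of 3.48 and a median −log10 q of 2.02. Gained regions were intermediate in width, with a median of 1166 bp against 801 bp for lost, 2309 bp for kept and 663 bp for the other regions. By the rule, no gained region overlapped a 1 h peak. Of the 488, 45 (9.22%) lay within 1 kb of a peak in a 1 h list, 183 (37.5%) lay within 10 kb, and the median distance was 20691 bp.

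Gained regions carried a CHD4 peak before 1 h about as often as merged regions in general, kept ones included. Of the 488, 234 (48.0%) were called in at least 1 of the 4 lists of 0 h and 30 min, against 45.9% of all 13589, and 254 (52.0%) in none. By list, the share was 7.0% and 34.4% at 0 h and 19.9% and 13.9% at 30 min, with the high value in the longer 0 h list (6000 peaks, against 2488 in replicate 1). The other regions had 9.28%, 26.1%, 17.3% and 14.3% in the same lists, with 6957 (62.3%) in none of the 4. Lost regions had more earlier calls, from 22.1% to 46.2% per list, with 65 (32.7%) in none of the 4. Kept regions ranged from 57.0% to 84.6%, with 80 (4.62%) in none. The 0 h lists were made without 4-OHT, so some of the gained regions were called before Ikaros was induced.

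**Figure D2:**
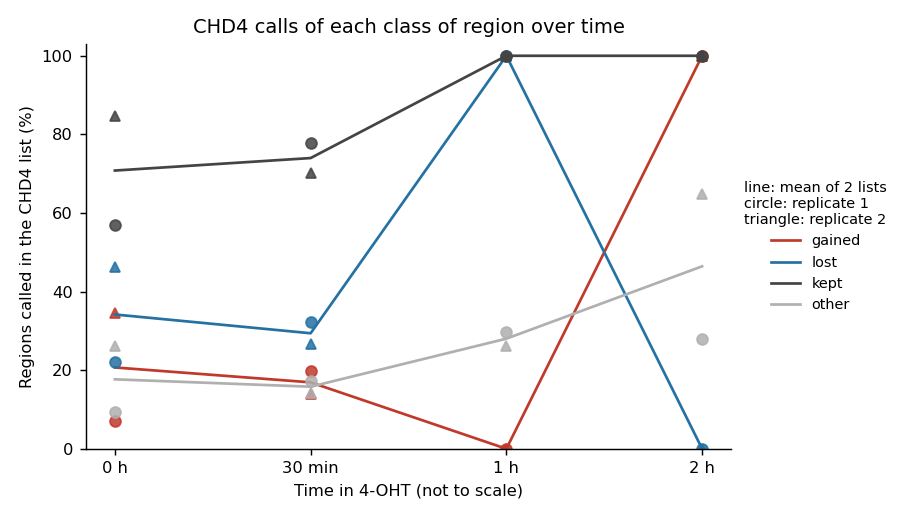
Share of the gained, lost, kept and other regions called in each CHD4 list (y axis, %) at 0 h, 30 min, 1 h and 2 h in 4-OHT (x axis, not to scale), with a circle for replicate 1, a triangle for replicate 2 and a line through the mean. Values of gained, lost and kept regions at 1 h and 2 h are fixed by the rule, and before 1 h the gained regions lie between 7.0% and 34.4%.

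Ikaros peaks became more frequent at gained regions between 1 h and 2 h and less frequent at lost regions. An Ikaros peak overlapped 56.4% and 62.5% of the gained regions in the 1 h lists (replicates 1 and 2) and 65.8% and 66.8% in the 2 h lists. The rise was 9.43 points in replicate 1 and 4.30 in replicate 2, and the mean difference was 6.86 points (exact permutation p = 0.333, the smallest possible). It was 3.50 points without CHD4 2 h replicate 1 (exact permutation p = 0.667), 4.45 without CHD4 2 h replicate 2 and 3.79 without Ikaros 1 h replicate 1. At lost regions the share was 81.9% and 88.4% at 1 h and 75.9% and 75.4% at 2 h, so the groups did not overlap and the mean fell by 9.55 points (exact permutation p = 0.333). At kept regions the differences were 3.18 points and −0.173 points, and at the other regions 2.45 and −0.636 points. The Ikaros lists of 2 h held 14225 and 14179 peaks, against 12447 and 14874 at 1 h. The list grew in replicate 1, where the rise at gained regions was larger, and shrank in replicate 2, and the part of list length in the rise was not tested.

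H3K27ac moved in the same directions by smaller amounts. Its share at gained regions was 90.6% and 88.3% at 1 h and 93.0% and 91.6% at 2 h, a difference of 2.46 points in replicate 1 and 3.28 points in replicate 2. At lost regions it was 93.5% and 90.5% at 1 h and 91.5% and 87.9% at 2 h, which overlapped between times (exact permutation p = 0.667). Kept regions differed by 0 and 0.347 points, and the other regions by 1.01 and 1.87 points. The H3K27ac lists grew from 27214 and 23701 peaks at 1 h to 33664 and 25141 at 2 h, and their part in the rise at gained regions was not tested. Over 500 bp windows at region middles, which take out the difference in width, Ikaros shares rose by 5.74 and 6.15 points at gained regions and fell by 6.53 and 14.6 points at lost regions. At kept regions they changed by 6.35 and −1.73 points, so in replicate 1 the rise was no larger at gained than at kept regions.

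**Figure D3:**
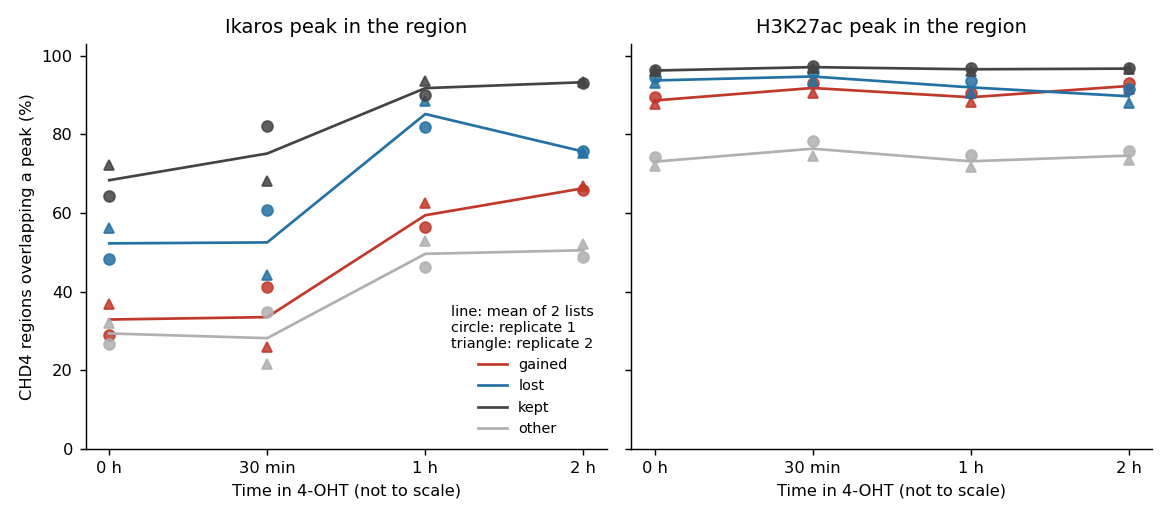
Share of gained, lost, kept and other CHD4 regions overlapping an Ikaros peak (left) or an H3K27ac peak (right) in each list (y axis, %), by time in 4-OHT (x axis, not to scale), with a circle for replicate 1, a triangle for replicate 2 and a line through the mean. Between 1 h and 2 h the Ikaros share went up at gained regions, to 65.8% and 66.8%, and down at lost regions, to 75.9% and 75.4%.

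The same directions appeared in the strength of peaks that were called throughout, so that no peak entered or left a list. Over the 6715 Ikaros regions called in all 4 lists of 1 h and 2 h, each list's fold was turned into a percentile rank. The 205 that lay in gained CHD4 regions had mean ranks of 48.2 and 44.4 at 1 h and 56.3 and 49.2 at 2 h. The 114 in lost regions had 51.0 and 58.7 at 1 h and 48.0 and 39.3 at 2 h. The 1604 in kept regions changed by 0.360 and −1.75 rank points, and the 1157 in no CHD4 region by 2.09 and 0.110. For H3K27ac, 14716 regions were called in all 8 lists. Those in gained regions (396) had mean ranks between 56.3 and 58.9 in the 6 lists up to 1 h, and 62.3 and 61.2 at 2 h. Those in lost regions (162) had ranks between 53.1 and 57.6 up to 1 h, and 52.8 and 48.5 at 2 h. Kept regions (1521) stayed between 71.9 and 74.6 in all 8 lists. A rank is relative to the other peaks of its list, so these values give order within a library and not amounts.

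**Figure D4:**
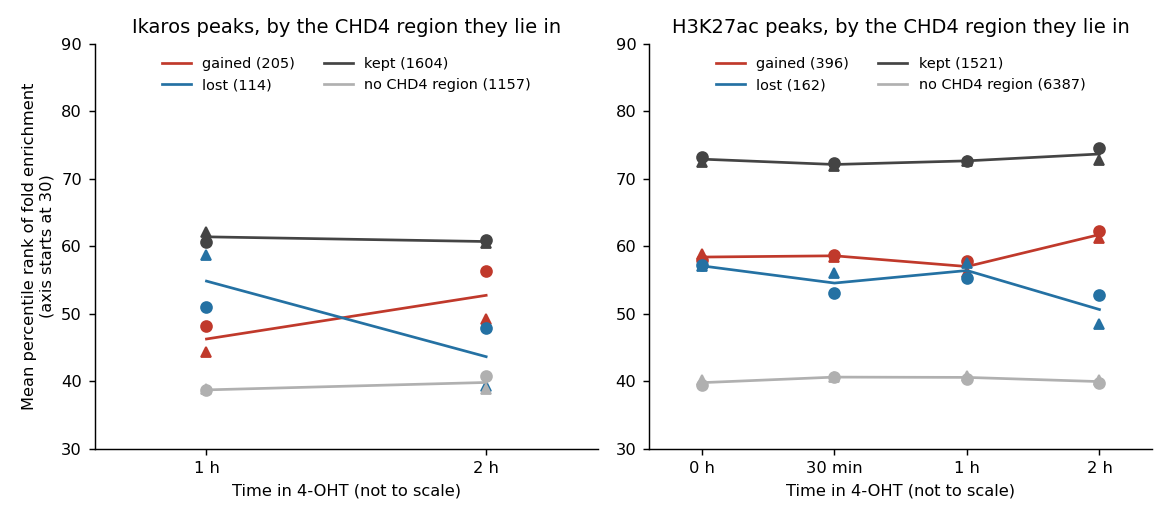
Mean percentile rank of fold enrichment (y axis, from 30 to 90) for Ikaros peaks called in all 1 h and 2 h lists (left) and H3K27ac peaks called in all 8 lists (right), split by the class of CHD4 region they lie in, with numbers of peaks in the key and a circle or triangle for replicate 1 or 2. At 2 h the H3K27ac ranks in gained regions (62.3 and 61.2) lie above those of every earlier list, and those in lost regions (52.8 and 48.5) below.

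Over all 4 times, the Ikaros share of gained regions went from 28.9% and 36.9% at 0 h, through 41.2% and 25.8% at 30 min, to the values above. The Ikaros lists held 7822 and 9527 peaks at 0 h and 9181 and 5373 at 30 min. At 1 h they held 12447 and 14874, and at 2 h 14225 and 14179. The other regions rose too, from a mean share of 29.3% at 0 h to 50.5% at 2 h. The part of list length in the trends was not tested. At gained regions Spearman's rho with time over the 8 libraries was 0.878. It did not pass the adjustment over 6 trends (exact permutation p = 0.0103, adjusted 0.0595). Pearson's r was 0.875 and did pass (exact permutation p = 0.00476, adjusted 0.0286), and it was 0.805 when 2 h was left out. That call ended when CHD4 2 h replicate 1 was left out (exact permutation, adjusted p = 0.0512), as it did without Ikaros 0 h replicate 1 (0.0762), 0 h replicate 2 (0.0667), 30 min replicate 1 (0.0571) or 1 h replicate 1 (0.0714). Kept regions showed a like trend. Their rho was 0.830 (exact permutation p = 0.0198, adjusted 0.0595) and their r 0.841 (exact permutation p = 0.00952, adjusted 0.0286), or 0.876 with no 2 h libraries. The call for this r ended without any of the same 5 libraries, at the same adjusted p, and without Ikaros 30 min replicate 2 (exact permutation, adjusted p = 0.0635). The difference between gained and kept regions had a rho of 0.781 (exact permutation p = 0.0349, adjusted 0.0698) and an r of 0.772 (exact permutation p = 0.0238, adjusted 0.0476). It rested on the 2 h libraries, since r was 0.321 when they were left out. Leaving out CHD4 1 h replicate 2 kept the call for this r (exact permutation, adjusted p = 0.0341), and leaving out any other CHD4 or Ikaros library ended it (adjusted 0.0635 to 0.772). With 500 bp windows in place of whole regions this last r was −0.125 (exact permutation, adjusted p = 0.752), so the call did not hold. The rho there was −0.195. With pairings made only within replicate numbers, no r passed here (exact permutation, adjusted p = 0.0729, 0.0729 and 0.0903 for gained, kept and their difference).

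Trends of the H3K27ac rank did not pass in any of the 3 cases. At gained regions rho was 0.293 (exact permutation p = 0.513, adjusted 0.513) and r was 0.671 (exact permutation p = 0.0639, adjusted 0.0958), with r turning to −0.632 when 2 h was left out. At kept regions rho was 0.439 (exact permutation p = 0.300, adjusted 0.360) and r was 0.491 (exact permutation p = 0.225, adjusted 0.225), or −0.246 with no 2 h libraries. For gained minus kept, rho was 0.439 (exact permutation p = 0.300, adjusted 0.360) and r was 0.566 (exact permutation p = 0.145, adjusted 0.174), or −0.404 with no 2 h libraries. With only peaks of −log10 q of at least 2 in the CHD4 lists, which left 104 gained regions, the rho at gained regions was 0.878 (exact permutation p = 0.0103, adjusted 0.0155).

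Most gained regions with Ikaros at 2 h had it already at 1 h. Both 2 h Ikaros lists called 271 gained regions (55.5%), and 205 of these were called in both 1 h lists too. Only 21 had Ikaros in both 2 h lists and neither 1 h list. Of those 21, 15 were promoters, 19 had H3K27ac in all 8 lists and 16 had no CHD4 call at 0 h or 30 min. They included the promoters of Lcp1, an actin-bundling protein of leukocytes, Iqgap1, a scaffold of the cytoskeleton, and Cenpe, a kinesin of the mitotic spindle (named after their values were seen). Kept regions had Ikaros in both 2 h lists at 1566 of 1731 (90.5%). At 2 h the Ikaros share of gained regions was lower by 27 ± 0.602 points than that of kept regions (SD over the Ikaros lists, n = 2), and the H3K27ac share was 4.42 ± 0.810 points below. With −log10 q of at least 2 the Ikaros difference was −9.92 points and that of H3K27ac was 0.917 points, which is the opposite sign. The Ikaros difference was −15.2 points without CHD4 1 h replicate 1, −49.1 without CHD4 2 h replicate 1 and −63.4 without CHD4 2 h replicate 2. Without the same libraries the H3K27ac difference was −2.20, −22.8 and −41.9 points.

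At the other end, 85 gained regions (17.4%) had no Ikaros peak in any of the 8 lists, against 8 lost (4.02%), 39 kept (2.25%) and 3482 other regions (31.2%). The share over all merged regions was 26.6%, so that of gained regions lay below it. Most merged regions are other regions, which are narrower (median 663 bp) than gained ones (1166 bp) and can overlap fewer peaks. The part of width in this contrast was not tested. Of these 85, 28 (32.9%, 95% Wilson interval 23.9% to 43.5%) were promoters and 46 (54.1%) had H3K27ac in all 8 lists. Among the 271 with Ikaros in both 2 h lists, 163 (60.1%, 54.2% to 65.8%) were promoters and 254 (93.7%) had H3K27ac in all 8. An earlier CHD4 call was found at 16 (18.8%) of the former and 157 (57.9%) of the latter. Their CHD4 ranks at 2 h were 37.4 and 38.1, below 51.8 and 50.8. More than 50% of the middle 300 bp was repeat-masked at 25 (29.4%) of the 85 and at 13 (4.80%) of the 271. The part of weak or repeat-derived calls in these values was not tested. Intervals cover counting error over regions only.

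Gained regions were found at promoters as often as lost ones. A TSS lay within 1 kb of 243 gained regions (49.8%, 45.4% to 54.2%), 99 lost (49.7%, 42.9% to 56.6%) and 767 kept regions (44.3%, 42.0% to 46.7%). The other 11171 regions had 41.7%. Away from promoters, 120 gained regions (24.6%) had their middle in an intron, 119 (24.4%) between genes and 6 (1.23%) in an exon. A TSS lay inside 34.4% of gained, 37.7% of lost and 36.3% of kept regions, and kept regions are wider. The excess of gained over kept promoters was 5.49 points, and with windows of 500 bp it was 10.2 points. It did not hold when a 2 h list was left out, which makes any region of the other 2 h list gained if no 1 h list has it. Without replicate 1 the difference was −2.45 points and without replicate 2 it was −10.2 points. A distance of over 50 kb from a TSS was found for 22 gained regions (4.51%), against 5.02% of all merged regions.

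**Figure D5:**
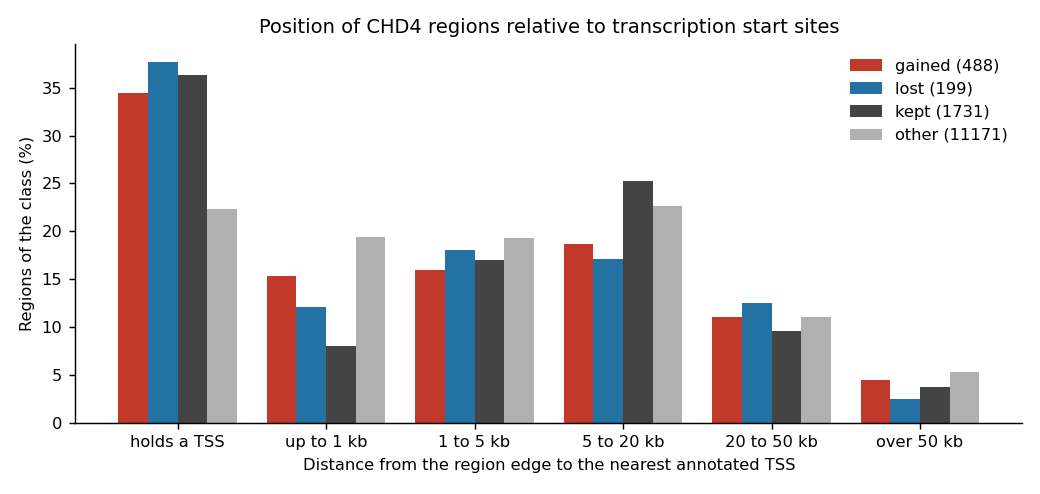
Share of gained, lost, kept and other CHD4 regions (y axis, %) by the distance from the region edge to the nearest annotated TSS (x axis), with the number of regions of each class in the key. Gained and lost regions have similar profiles, and kept regions are the most frequent between 5 and 20 kb (25.3%).

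Short words of known factors were searched in the middle 300 bp of each region, on both strands. The Ikaros core was about as frequent in gained as in all regions. GGGAA was present in 59.6% of gained, 60.3% of lost and 61.6% of kept regions, and in 59.9% of all 13589. The longer TGGGAA, which contains it, was present in 22.7% of gained and 30.2% of lost regions, and in 24.8% of all. GGGCGG, the GC box of SP and KLF factors, was present in 21.3% of gained, 25.6% of lost and 15.8% of kept regions (16.3% of all). At promoters alone it was in 35.4% of gained, 42.4% of lost and 23.6% of kept regions (29.8% of all promoter regions). CCGGAAG, a word of ETS factors, was in 4.30% of gained and 5.02% of all, and TGTGGT, a word of RUNX factors, in 21.9% and 23.9%. CAGGTG, an E-box bound by E2A, was in 16.6% of gained, 25.6% of lost and 20.2% of all. CACGTG, the palindromic E-box, was in 5.33% of gained and 5.25% of all. TGACTCA, the AP-1 word, was in 3.89% of gained and 5.50% of all, and the EBF1 palindrome in 1.23% and 2.10%.

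Within gained regions, those with and without Ikaros peaks differed more. GGGAA was in 67.2% of the 271 with Ikaros in both 2 h lists and 38.8% of the 85 with none, and GGGCGG in 27.7% and 5.88%. Their median GC content was 51.3% and 40.7%, which moves with both words. In 100 bp windows at Ikaros summits of the 2 h lists, GGGAA was found at 33.0% and 37.0% of those in gained regions (replicates 1 and 2), at 40.9% and 39.9% of those in lost regions, at 34.3% and 36.3% of those in kept regions, and at 35.3% and 38.0% of all.

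Among 21911 protein-coding genes, 569 (2.60%) had a gained region within 20 kb of a TSS, 253 (1.15%) a lost one and 1634 (7.46%) a kept one. Of 18 genes that the study names as repressed fast by Ikaros, 3 had a gained region (Bcl11a, Dntt and Itga5), none a lost one and 7 a kept one, among them Igll1 and Vpreb1, the surrogate light chain genes. The study chose this list on cells of this kind, so it is not independent of these data. Of 23 transcription factors of the B lineage, 5 had a gained region (Tcf4, Lef1, Sox4, Runx1 and Bcl11a), 2 a lost one (Tcf12 and Runx1) and 15 a kept one, including Ebf1 and Pax5. Of 20 genes of pre-B cell receptor signalling, 1 had a gained region (Inpp5d), 1 a lost one (Cd22) and 15 a kept one. Of 15 NuRD subunits, 1 had a gained region (Chd3, a paralogue of Chd4) and 3 a kept one, including Chd4 itself. The 13 BCL2 family genes had 1 gained region, near Pmaip1, which encodes the death inducer NOXA, and the 13 adhesion genes had 1, within 20 kb of Itga5. No gained region was found near the 5 Ikaros family genes, the 13 genes of the IL-7 receptor and STAT5 pathway, the 19 of the cell cycle or the 12 immediate early genes. Bcl11a, Lef1, Sox4, Runx1, Inpp5d and Pmaip1 also had a kept region within 20 kb, so CHD4 was called near these genes at 1 h too. Of the gained regions near genes on the lists, the one at Chd3 was 42803 bp from the nearest CHD4 peak of a 1 h list, and the others were 452 bp (Tcf4) to 3201 bp (Lef1) from one.

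In the following, folds are given for 0 h, 30 min, 1 h and 2 h in that order, replicate 1 before replicate 2, and folds of different libraries are not amounts on one scale. H3K27ac folds were lower at later times over whole lists, with medians of 7.50 and 7.71 at 0 h, 6.02 and 5.45 at 1 h and 4.36 and 5.19 at 2 h. Where gained regions had an H3K27ac peak, its median fold was 15.0 and 13.3 at 0 h and 10.7 and 9.83 at 2 h, and at kept regions it was 22.3 and 17.8 and then 15.2 and 13.8. The part of this difference between libraries in the H3K27ac folds of single regions below was not tested. The gained region at Bcl11a, a transcription factor needed for lymphoid development, lay at chr11:24081324-24083077, with its edge 654 bp from a TSS and its middle in an intron. No CHD4 list before 2 h called this interval, although a 1 h list had a CHD4 peak 986 bp away, and the 2 h folds were 3.35 and 2.88. Ikaros was called in all 8 lists, at folds of 3.24, 4.93, 6.43, 4.92, 6.25, 5.24, 6.23 and 8.00. H3K27ac folds were 29.5, 26.9, 26.5, 13.4, 18.3, 13.0, 13.0 and 14.2. Within this interval Ikaros was called earlier than CHD4, and the H3K27ac folds at 1 h and 2 h were below both 0 h values.

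Lef1, a factor of early lymphocytes, had a gained region over a TSS at chr3:131111390-131113351, with its middle in an intron. CHD4 was called once before 1 h, at 30 min in replicate 1 (3.05), and at 3.42 and 2.96 at 2 h. Ikaros was at 7.39 and 6.19 at 1 h and 8.31 and 6.09 at 2 h, and at 0 h only in replicate 2 (3.48). H3K27ac folds were 27.7 and 24.0 at 0 h, 17.5 and 8.81 at 30 min and 10.8 or more at 1 h, and 6.16 and 8.19 at 2 h, so the 2 h values lay below all others. Inpp5d, which encodes the inositol phosphatase SHIP1, a brake on PI3K signalling, had a gained region over a TSS at chr1:87619353-87620726. CHD4 was called in no list before 2 h and then at 3.62 and 3.10, with a CHD4 peak of a 1 h list 984 bp away. Ikaros was at 9.38 and 6.82 at 1 h and 7.27 and 5.80 at 2 h, against 4.31 and no peak at 0 h. The H3K27ac folds there were 25.5, 26.4, 38.8, 18.3, 29.6, 11.03, 26.97 and 22.9, so the 2 h values lay within the range of the earlier lists.

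Other gained regions near genes on the lists had CHD4 calls before 1 h. At Chd3 (chr11:69366399-69368156, 1235 bp from a TSS with its middle in an intron), CHD4 was called in 3 of the 4 earlier lists at 3.07 to 3.41, and at 3.06 and 2.99 at 2 h. Ikaros was called there in all 8 lists and highest at 0 h (10.4 and 17.8). At Sox4, a factor of B cell progenitors, the region chr13:28945003-28948646 lay 5067 bp from the Sox4 TSS and 1955 bp from the nearest TSS of any gene, with its middle in an annotated intron. CHD4 was called in all 4 earlier lists at 3.25 to 3.67 and at 3.11 and 3.63 at 2 h, and neither 2 h list called Ikaros. At Dntt, which encodes the terminal transferase of V(D)J joining, the region chr19:41035495-41037131 had its middle in an intron 6110 bp from a TSS. CHD4 was called at 0 h (3.42 and 3.47), once at 30 min, and at 2 h with folds of 2.99 or just above. Ikaros was called at 0 h (4.96 and 5.21) and once at 1 h (5.79), and in neither 2 h list. The region near Itga5, the alpha chain of a fibronectin receptor, was nearer to Zfp385a (2096 bp) than to Itga5 (13611 bp).

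At Runx1, a factor of blood progenitors, a gained and a lost region lay in the same stretch of intron. The gained one was at chr16:92706407-92707019, 9079 bp from a TSS, with CHD4 folds of 3.47 and 3.12 at 2 h and 3.30 in 30 min replicate 2. It had an Ikaros peak in 2 lists only, 30 min replicate 1 (4.04) and 2 h replicate 2 (3.85). The lost one was at chr16:92709740-92711037, 12412 bp from a TSS, with CHD4 folds of 3.17 and 3.47 at 1 h and calls in both 0 h lists (3.74 and 3.39). Ikaros was called there in 7 of 8 lists, at 3.32 and 5.56 at 1 h and 4.42 and 3.73 at 2 h, which overlap. At Cd22, an inhibitory receptor of B cells, the lost region chr7:30878619-30880107 held a TSS, with CHD4 at 3.63 and 3.33 at 1 h and Ikaros in both lists of 30 min, 1 h and 2 h. At Tcf12, an E-protein gene, the lost region chr9:71895964-71896618 had its middle in a UTR and no Ikaros peak in any list, with CHD4 at 3.45 and 3.08 at 1 h. The lost region within 20 kb of Nhej1, a DNA repair gene, held a TSS of Cnppd1 and was 16381 bp from that of Nhej1.

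The 12 gained regions with the highest CHD4 ranks were nearest to Gm17467, Cstf2t, Pdcd6ip, A130010J15Rik, Asah2, Ostf1, Mgat1, Ppp2r5c, Zfp994, Irgm1, Gse1 and Cyb561a3. None of these genes is on the lists above. Mgat1 (chr11:49250109-49250564), a glycosyltransferase of N-glycan synthesis, and Irgm1 (chr11:48871051-48872599), an interferon-induced GTPase, each held a TSS and had no CHD4 call before 2 h. At Mgat1 the 2 h CHD4 folds were 3.84 and 3.51, and Ikaros was at 4.83 and 8.35 at 1 h and 6.07 and 4.53 at 2 h. At Irgm1 they were 3.59 and 3.56, and Ikaros was called only from 1 h on (6.25, 4.34, 5.46 and 4.35). At Pdcd6ip, which encodes the ESCRT-associated protein ALIX, the region chr9:113708393-113708922 lay 134 bp from a TSS, with CHD4 at 3.70 and 3.82 at 2 h and 3.30 in 0 h replicate 2. It had no Ikaros peak in any list and H3K27ac in all 8, at 11.3 to 18.4. The region near Gm17467 was on the X chromosome, where gene families of near-identical copies can share reads, and is uncertain.

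The 6 lost regions with the highest ranks in the 1 h lists were nearest to Fgf14, Nek6, Zdhhc18, Lrrc8b, Lbhd1 and Zfp36l1. Zfp36l1 encodes an RNA-binding protein that promotes mRNA decay and quiescence of B cell precursors, and its region (chr12:80001697-80002988) lay between genes, 110006 bp from that TSS. CHD4 was at 4.02 and 3.94 at 1 h, H3K27ac at 13.2 and 11.5 at 1 h and 9.83 and 5.51 at 2 h, and Ikaros at 5.40 and 7.17 at 1 h and 3.26 and 4.75 at 2 h. CHD4 was not called there at 2 h, and the Ikaros and H3K27ac folds of both 2 h lists lay below those of both 1 h lists. Fgf14 was 124539 bp from its region, which had CHD4 folds of 5.45 and 5.66 at 1 h, the highest of the lost class, and an H3K27ac peak in 1 of 8 lists. The 6 highest kept regions were nearest to Gm47283, Smim15, Gm21887, Rfwd3, Pfas and Ppp4r2, of which Gm47283 and Gm21887 are at the ends of the Y and X chromosomes, where reads of the 2 can be exchanged. Rfwd3, a ubiquitin ligase gene, held a TSS in its kept region (chr8:111299833-111302407), with CHD4 called in all 8 lists at 3.51 to 6.16.

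The label of the cells was checked on H3K27ac peaks within 1 kb of marker TSSs. Of 8 pre-B markers, 7 had a peak in all 8 lists and Rag1 in 7. None of the 4 T cell markers had one, and of the 4 myeloid markers only Lyz2 had one, in 1 list. The erythroid markers Klf1 and Hbb-bt had peaks in all 8 lists.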

How the data were processed

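ChIP-seq peak lists of CHD4, HA-Ikaros and H3K27ac (24 lists, 1 per library, 8 per target) were used. Another 8 input libraries were not analysed here. Per the labels and the study's methods, the authors digested crosslinked chromatin by sonication or MNase (which library had which is not given), aligned paired reads to mm10 with Bowtie2 2.4.2, marked duplicates with Picard 2.23.7 and called peaks with MACS2 2.2.7.1, in broad mode for CHD4. deepTools 3.5.0 is also named in the submitters' processing notes. The list names say an input was used, but which input is not given in the sources used here. A blacklist is named for coverage files, and its use on the peak lists is not given. Methods describe 0 h, 1 h and 2 h, and settings for 30 min are not given.

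The deposited lists hold a display score (not used), a fold enrichment (a ratio over local background), the −log10 of the p-value and q-value per peak, and for narrow lists the summit position. The fold was used for ranks within a list and as a description, the deposited −log10 p to make lists of equal size, and the −log10 q as a filter. Reads per region are not in the lists, so count models could not be used and CHD4 depth is unknown.

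CHD4 lists of 1 h and 2 h were merged where they overlapped by at least 1 bp. Genes came from GENCODE M21 and sequence from RefSeq GRCm38.p6. No peak lay beyond a chromosome end (0 peaks). A promoter region lay within 1 kb of any TSS. Libraries were compared by exact two-sided permutation tests (6 arrangements for 2 against 2) and trends by all 40320 pairings, with Benjamini-Hochberg adjustment over 6 trends and a threshold of 0.05. Shares of regions have 95% Wilson intervals. Percentile ranks of CHD4 fold were taken over all peaks of a list. Those of Ikaros and H3K27ac used only peaks called in every list compared. Groups came from library titles, which give no batch. Named regions were the 12 gained, 6 lost and 6 kept with the highest mean rank of CHD4 fold, genes of fixed lists with a gained or lost region within 20 kb, and cell type markers. Members and lists were chosen with earlier results of these data known. The alternatives raised the minimum −log10 q to 2 or the minimum fold to 3, or used a 50% overlap, lists of equal size, stitching within 1 kb, a 3 kb promoter distance, all H3K27ac peaks ranked, a replicate block, each library left out, and 500 bp windows, which were added after seeing the data. Python 3.11.15, numpy 2.4.6, pandas 2.3.3, scipy 1.17.1 and matplotlib 3.10.9 were used, and the region classes and tests were checked on simulated lists.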

Additional observations from a re-analysis of the deposited data

Results flagged for a closer look

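The change of the Ikaros share from 1 h to 2 h went up at gained regions (by 9.43 and 4.30 points in replicates 1 and 2) and down at lost regions (−6.03 and −13.1 points). The difference between the changes was 16.4 points, with gained minus lost shares of −25.6 and −25.9 at 1 h and −10.1 and −8.57 at 2 h (exact permutation p = 0.333, the smallest that 2 against 2 allows). It was 8.81 to 18.0 under the alternatives that kept every library and 8.39 to 17.2 with 1 library left out, with 8.39 without CHD4 2 h replicate 2 and 10.7 without CHD4 2 h replicate 1. The lowest value with every library, 8.81, came with a −log10 q of at least 2. H3K27ac moved with it, at 5.13 points (exact permutation p = 0.333; 2.53 to 7.83 under the alternatives that kept every library).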

How the results depend on the processing

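The change of the Ikaros share from 1 h to 2 h at gained regions, and the gained minus lost changes of the Ikaros and H3K27ac shares, kept their sign under every alternative run (exact permutation p of 0.333 to 0.667, and 0.5 with the replicate block). The gained minus kept difference in the Ikaros share stayed below 0 under every alternative run. The differences in CHD4 peaks per list and in the TSS share, and the gained minus kept differences in H3K27ac and promoter shares, changed sign under at least 1 alternative. Requiring a −log10 q of at least 2 turned the difference in CHD4 peaks per list to −115 and that in the TSS share to 0.562 points, left 104 gained and 428 kept regions, and moved the gained minus kept shares to −9.92 (Ikaros), 0.917 (H3K27ac) and 13.9 points (promoter). Lists of equal size gave 207 gained and 490 lost regions and shares of −21.7, −3.40 and 11.3 points, and give no value for peaks per list. A fold of at least 3 gave 297 gained and 396 lost regions and an Ikaros share of −23.6 points. A 50% overlap gave −31.9 (Ikaros) and −5.60 points (H3K27ac), stitching −28.2 and −5.28, and 500 bp windows −3.59 (H3K27ac) and 10.2 (promoter). The cause was not tested.

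The rank correlation of the Ikaros share with time passed the adjustment under other settings: for gained regions at 0.878 with a 50% overlap, equal lists or 500 bp windows and 0.908 with the q filter, and for kept regions at 0.878 with a 50% overlap or 500 bp windows, 0.908 with equal lists and 0.957 with the q filter. For gained minus kept it was 0.878 with the q filter and −0.195 with 500 bp windows. The H3K27ac rank of gained regions reached 0.878 with the q filter. Pearson's r of gained minus kept no longer passed with a 50% overlap (0.727, exact permutation, adjusted p = 0.0889), stitching (0.702, adjusted 0.0984) or 500 bp windows (−0.125, adjusted 0.752). That of the H3K27ac rank passed for gained regions with the q filter (exact permutation, adjusted p = 0.0135) or a fold of at least 3 (0.0390), for kept regions with the q filter (0.0324), and for gained minus kept with the fold filter (0.0390).

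With 1 library left out, gained regions numbered 809 to 4551, lost 304 to 1180 and kept 1794 to 2690, since fewer lists then define a class. The gained counts were 4551 without 2 h replicate 1, 2586 without 2 h replicate 2, 917 without 1 h replicate 1 and 809 without 1 h replicate 2. Gained minus kept shares ranged from −63.4 to −15.2 points (Ikaros), −41.9 to −2.20 (H3K27ac) and −10.2 to 6.38 (promoter, −2.45 without 2 h replicate 1). The rank correlations ranged from 0.826 to 0.973 (Ikaros, gained), 0.771 to 0.927 (kept), −0.683 to 0.863 (gained minus kept, −0.244 without CHD4 2 h replicate 1), −0.0551 to 0.537 (H3K27ac, gained) and −0.0488 to 0.863 (kept). In all, 88 of 120 values under other settings and 108 of 140 with a library left out kept their direction, size or side of the threshold. Part of this tally was fixed in advance. The overlap alternative left region counts, peaks per list, the TSS share and the promoter share unchanged. The replicate block left the differences between 1 h and 2 h unchanged. No comparison of 1 h with 2 h could pass the threshold, so only its sign could change. The tally therefore does not measure robustness.

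With 2 replicate numbers the samples share a number only. Over 1731 kept regions the rank differences of replicates 1 and 2 at 1 h and 2 h had a correlation of −0.0352. The replicate block gave a rank correlation of 0.9 for the Ikaros share of gained regions (exact permutation p = 0.0243, adjusted 0.125). With the block, Pearson's r of the Ikaros share was 0.886 for gained regions, 0.842 for kept regions and 0.779 for their difference, and none of the 3 passed the adjustment (exact permutation, adjusted p = 0.0729, 0.0729 and 0.0903). No other call changed with the block. Depth limits a class by its threshold, and CHD4 depth is unknown.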
